A study of Mus musculus with 12 samples.

Results

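The genes described here encode the constant parts of antibodies and the proteins that join and carry secreted antibody into the gut. The list held 10 genes, chosen by name: the heavy chain constant genes Igha, Ighm, Ighd and Ighg2b, the light chain constant genes Igkc, Iglc1 and Iglc2, the joining chain gene Jchain, the plasma cell gene Mzb1 and the receptor gene Pigr. Of these, 8 were matched by Ensembl identifier among the 38924 genes of the count tables. Ighd and Iglc1 were not matched and were not analysed here, so that no IgD or lambda 1 value is given. All 8 matched genes passed the filter on low counts, which asked for 10 or more counts in 3 or more mice and kept 20311 genes.

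The data are RNA-Seq counts from the proximal colon of 12 female C57BL/6 mice at 6 weeks of age, 6 with the genotype APC Min/+ and 6 WT (wild type). Each library came from 1 mouse. APC Min/+ mice carry 1 germline copy of Apc with the Min point mutation in every cell, and the genotypes were kept in separate cages, so genotype and cage cannot be told apart. The labels do not say which of the study's shipments a mouse came from. The study compared the genotypes at an age before polyps are seen, and the comparison below asks which antibody genes differed and whether Pigr went with IgA. Values are CPM (counts scaled to library size, with TMM factors) for comparisons of 1 gene between mice, and RPKM (counts per kilobase of counted gene length and library size) for comparisons between genes.

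Plasma cells in the connective tissue of the gut mucosa secrete mostly IgA, in which pairs of antibodies are held together by the J chain. The polymeric immunoglobulin receptor, the product of Pigr, sits on the basal side of epithelial cells, binds IgA or IgM that contains J chain, carries it across the cell and releases it into the lumen with a part of the receptor attached. IgM can be joined and carried in the same way, whereas IgG lacks the tail to which the J chain is attached. Mzb1 is a chaperone of the endoplasmic reticulum of plasma cells and B cells of the marginal zone and takes part in the assembly of secreted antibody.

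The heavy chain genes lie side by side on the reverse strand of chromosome 12 of GRCm38. In the GENCODE M21 annotation, Ighm is at chr12:113418558-113422730, Ighg2b at chr12:113302965-113307933 and Igha, the last of them, at chr12:113254830-113260236. Igkc is at chr6:70726435-70726966 on the forward strand and Iglc2 at chr16:19198396-19200351 on the reverse strand. Jchain is at chr5:88519809-88527891 on the reverse strand and Pigr at chr1:130826684-130852249 on the forward strand. The counted lengths of Igha (1034 bp), Ighg2b (1010 bp) and Igkc (323 bp) equalled the coding exons of the secreted chain with its stop codon, so counts on these genes cover no untranslated region. The counted length of Ighm was 1486 bp, against 1367 bp for the secreted coding sequence. That of Iglc2 was 606 bp, against 318 bp of coding sequence, and the RPKM of Iglc2, its order beside Ighm and the kappa shares rest on the counted length.

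What lets an isotype be joined by the J chain is written at the end of its last secreted coding exon. The last 18 codons before the stop codon, read from GENCODE M21 transcripts, are shown for 4 heavy chains because they separate the joined isotypes IgA and IgM from the IgG isotypes counted beside them. Capitals mark a cysteine codon as the codon before the last, present in Igha and Ighm and absent at that place in Ighg1 and Ighg2b. The stretches are in the final exon of the secreted form, on the reverse strand, at chr12:113258771-113258824 for Igha, chr12:113420870-113420923 for Ighm, chr12:113328979-113329032 for Ighg1 and chr12:113306392-113306445 for Ighg2b.
Igha: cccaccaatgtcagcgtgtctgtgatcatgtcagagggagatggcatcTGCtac
Ighm: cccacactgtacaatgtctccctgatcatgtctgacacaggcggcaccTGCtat
Ighg1: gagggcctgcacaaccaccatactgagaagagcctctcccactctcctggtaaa
Ighg2b: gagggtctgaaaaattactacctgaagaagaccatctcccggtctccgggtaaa

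The 250 bases before the start of Jchain and Pigr (RefSeq, GRCm38.p6) are shown because these genes encode the partners of secreted IgA and their RNA differed in how it varied between mice. They are at chr5:88527898-88528147 on the reverse strand and chr1:130826434-130826683 on the forward strand, both written 5′ to 3′. Only 2 of the 10 listed genes had such a window in the table used. The windows were searched on both strands for CACGTG, a form of the E-box that USF transcription factors bind, and capitals mark a match.
Jchain: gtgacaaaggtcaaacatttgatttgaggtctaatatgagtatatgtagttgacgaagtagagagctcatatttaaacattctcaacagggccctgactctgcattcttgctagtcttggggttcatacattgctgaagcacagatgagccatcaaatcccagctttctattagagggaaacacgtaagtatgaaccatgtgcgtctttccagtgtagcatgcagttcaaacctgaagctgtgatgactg
Pigr: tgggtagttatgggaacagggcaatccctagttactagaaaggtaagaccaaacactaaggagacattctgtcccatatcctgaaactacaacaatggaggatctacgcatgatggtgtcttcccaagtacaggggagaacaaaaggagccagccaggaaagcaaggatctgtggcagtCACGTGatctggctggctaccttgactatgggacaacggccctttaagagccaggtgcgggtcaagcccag
The Pigr window held 1 match, which began 71 bases before the start, and the Jchain window held 0 matches. The motif was present in 1978 of 32851 windows of the same length (6.02%). A match of letters does not show that a factor was bound there.

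Total counts on genes lay between 50313805 and 197914821 per mouse, and 3 counts equal 0.0152 to 0.0596 CPM depending on the mouse. Igha, Igkc, Jchain and Pigr were counted at least 4158 times in every mouse, so counting error was small beside the spread between mice. The epithelial genes checked (12, among them Epcam and Krt8) summed to at least 13320 CPM in every mouse, and the smooth muscle genes (7) to at least 4529 CPM, so the samples labelled mucosa also held muscle RNA. APC Min/+ mice M10_2 and M13_1 stood apart from the others. Their summed CPM of 4 posterior Hox genes, which mark the hind end of the body axis, was 468 and 554, against 1.03 to 2.93 in the other 10 mice. Both libraries are labelled proximal colon like the others. With posterior Hox genes at this level, the stretch of colon they came from is in doubt, and for them segment and genotype cannot be told apart. Its part in the results was not tested, and values without these 2 mice are given beside several results. Apc itself had a log2 fold change of 0.05 (SE 0.12), and since Min is a point mutation this level does not check the labels.

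Per length of gene, Pigr, Igkc and Igha were the most abundant of the 8 genes. The median over the 12 mice was 666 RPKM for Pigr, 494 RPKM for Igkc, 392 RPKM for Igha, 94.7 RPKM for Jchain, 10.1 RPKM for Iglc2, 9.73 RPKM for Ighm, 2.15 RPKM for Mzb1 and 1.21 RPKM for Ighg2b. The order of the first 2 was not stable from mouse to mouse. Pigr exceeded Igkc in 7 of 12 mice, with a mean log2 ratio of 0.02 ± 1.61 (SD, n = 12). Igkc exceeded Igha in 11 of 12 mice (log2 ratio 0.64 ± 0.49, SD, n = 12), the exception being APC Min/+ mouse M18_2b. Igha exceeded Jchain in 12 of 12 mice by 2.83 to 4.82 times, and Jchain exceeded Iglc2 in 12 of 12. Iglc2 and Ighm could not be ordered, since Iglc2 was the higher in 5 of 12 mice (log2 ratio -0.15 ± 1.03, SD, n = 12). Ighm exceeded Mzb1 in 12 of 12 mice and Mzb1 exceeded Ighg2b in 10 of 12.

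**Figure D1:**
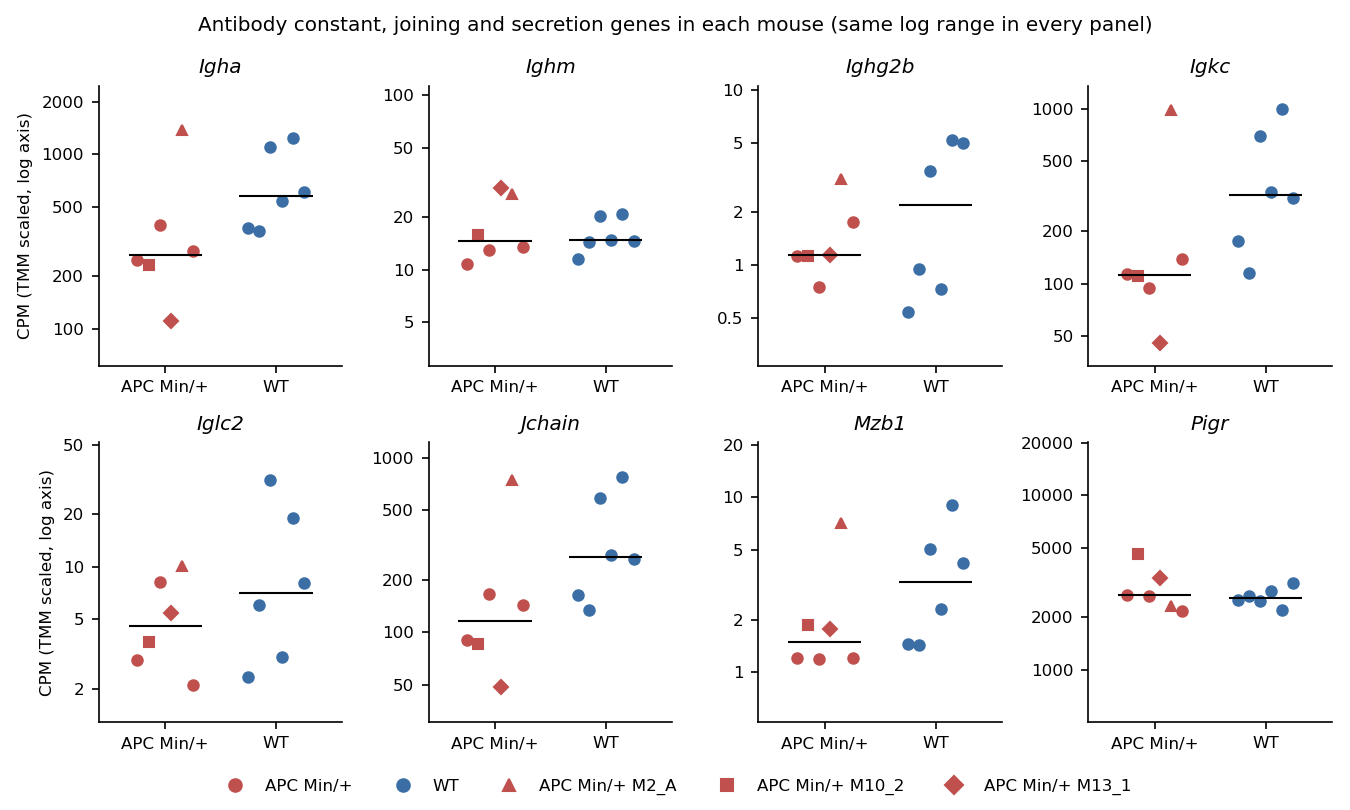
CPM of the 8 genes (vertical log axis, TMM-scaled, the same log range in every panel) in 6 APC Min/+ mice (red) and 6 WT mice (blue), with a black line at the median of each genotype. For Igha, Igkc, Jchain and Mzb1 the triangle, mouse M2_A, stands far above the other 5 APC Min/+ mice and among the highest WT mice, while the Pigr panel is narrow apart from M10_2 (square, 4634 CPM) and M13_1 (diamond, 3357 CPM).

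The central IgA gene, Igha, was lower in most APC Min/+ mice than in WT mice, but not in all. It was counted at 111 CPM in the lowest, 264 CPM at the median and 1369 CPM in the highest APC Min/+ mouse. The WT mice ranged from 362 CPM through a median of 577 CPM to 1246 CPM. Of the APC Min/+ mice, 4 lay below the lowest WT mouse, 1 (M18_2b, at 397 CPM) lay between WT values, and M2_A was the highest of all 12. The lowest of those 4 were M13_1 (111 CPM) and M10_2 (234 CPM), whose stretch of colon is in doubt. The fitted log2 fold change of -0.69 (SE 0.54) had a 95% confidence interval from -1.85 to 0.48 and an FDR of 0.910 in edgeR's quasi-likelihood test, so no difference between genotypes was shown. An exact permutation test of the mean log2 CPM gave a difference of -1.001 with p = 0.119. Without M10_2 and M13_1 the fitted log2 fold change was -0.31. In a bulk sample, fewer plasma cells and less Igha RNA per plasma cell cannot be told apart.

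Ighm, the constant gene of IgM and the first heavy chain gene that a B cell expresses, did not share this pattern. Its values were 10.8, 14.6 and 29.4 CPM (lowest, median and highest) in APC Min/+ mice and 11.5, 14.8 and 20.9 CPM in WT mice. The medians were nearly the same, and the 2 highest values belonged to APC Min/+ mice M13_1 and M2_A. The log2 fold change was 0.18 (SE 0.25, FDR = 0.917). Without M13_1 it was -0.01. The same mouse held the highest summed CPM of 15 B cell genes, 104 against 17.8 to 35.0 in the others, and the part of B cells in its Ighm value was not tested.

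Ighg2b, which encodes the IgG2b heavy chain, was counted at 0.752, 1.14 and 3.11 CPM (lowest, median and highest) in APC Min/+ mice. In WT mice the values were 0.542, 2.19 and 5.19 CPM. The WT mice fell into 3 at or below 0.951 CPM and 3 at or above 3.43 CPM, and those 3 exceeded every APC Min/+ mouse. The log2 fold change of -0.81 (SE 0.57, FDR = 0.908) was not called. The other IgG genes, counted beside the listed ones, were also lower in the fit, Ighg1 at -1.35 (SE 0.91), Ighg2c at -0.82 (SE 0.58) and Ighg3 at -1.30 (SE 0.62), each with an FDR of 0.908. Ighg1 was the most variable antibody gene, from 0.657 CPM in M8_2 to 49.0 CPM in WT mouse M16_1, a range of 74.7 times. Ighe, the IgE gene, had 2 counts in M8_2, 6 counts in M10_2 and 0 counts in every other mouse, too few to compare. Reads shared between the similar IgG genes may have been split by the counting, whose rule for such reads is not given in the sources used here.

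Among the light chains, Igkc (kappa) ranged over 21.7 times between mice, the widest range of the 8 genes. It was counted at 45.9, 112 and 988 CPM (lowest, median and highest) in APC Min/+ mice and at 115, 322 and 995 CPM in WT mice. Here too 4 APC Min/+ mice lay below the lowest WT mouse, M8_2, M10_2, M13_1 and M18_2b, which are not the same 4 as for Igha. M8_2 (113 CPM) and M10_2 (110 CPM) lay only just below it. M2_A lay beside the highest WT mouse, M17_1. The log2 fold change was -0.82 (SE 0.74, FDR = 0.910), with a 95% confidence interval from -2.41 to 0.77. Iglc2, a lambda constant gene, was counted at 2.12, 4.59 and 10.1 CPM in APC Min/+ mice and at 2.33, 7.10 and 31.6 CPM in WT mice. Its log2 fold change of -1.12 (SE 0.61, FDR = 0.908) leaned on WT mouse M16_1, without which it was -0.50. The coding sequence of Iglc2 is 96.5% identical to that of Iglc3 over 314 aligned bases, so its counts may hold reads of Iglc3.

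Jchain followed Igha in level and in the order of the mice. The values were 48.7, 117 and 748 CPM (lowest, median and highest) in APC Min/+ mice and 134, 270 and 772 CPM in WT mice. Again M13_1 was the lowest of all 12 mice and M2_A and M17_1 were the highest. The log2 fold change was -0.78 (SE 0.64, FDR = 0.910). Mzb1 (chr18:35647267-35649367, reverse strand) was counted at 1.18, 1.48 and 7.18 CPM in APC Min/+ mice and at 1.42, 3.27 and 9.07 CPM in WT mice. The fitted log2 difference was -0.71 (SE 0.56, FDR = 0.910). M2_A again lay among the highest WT mice, and the other 5 APC Min/+ mice lay at or below 1.87 CPM.

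Pigr, the epithelial carrier, varied least. It was counted at 2183, 2670 and 4634 CPM (lowest, median and highest) in APC Min/+ mice and at 2208, 2583 and 3158 CPM in WT mice. The 2 highest of all 12 values belonged to M10_2 and M13_1, and the remaining 4 of that genotype ranged from 2183 to 2692 CPM, inside or just below the WT range. The log2 fold change was 0.17 (SE 0.18, FDR = 0.910), with a 95% confidence interval from -0.22 to 0.57, which leaves out any change as large as 2 times in either direction. Without M10_2 and M13_1 it was -0.10.

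Across the 8 genes, 6 had a fitted log2 fold change below 0 and 2 above, with a median of -0.75, beside 51.6% of all tested genes below 0 and a median of -0.01 over all of them. None of the 8 was a DEG (FDR under 0.05, at least 2-fold change), as was none of all genes tested (0%) in edgeR's quasi-likelihood test. An unadjusted p under 0.05 was found for 0 of the 8 genes by edgeR and for 0 by DESeq2, against 5.27% of all genes by edgeR (1.81% lower and 3.46% higher in APC Min/+ mice) and 6.48% by DESeq2 (1316 of 20311), and the genotypes overlapped for all 8, with no overlap in 0.118% of genes. DESeq2 called 27 genes in all (0.133%). The 6 genes below 0 are not 6 independent results, since 5 of them varied with the sixth, Igha, from mouse to mouse.

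The result depended on M2_A. Without this mouse, the log2 fold changes in edgeR were -1.46 for Igha, -2.10 for Igkc, -1.75 for Jchain and -1.42 for Mzb1, with unadjusted p between 0.0016 and 0.0085 for these 4 genes. The lowest FDR over all genes in that fit was 0.541, so none was a DEG there either. M2_A had no label that sets it apart from the other APC Min/+ mice apart from the letter in its name, whose meaning is not given. It also had the highest summed CPM of the adipocyte genes (510, against 20.08 to 288 in the other mice), of the macrophage genes (321, against 103 to 287) and of the smooth muscle genes (7109, against at most 6653). The part of these tissues in its antibody values was not tested. The share of all genes with an unadjusted p under 0.05 was 9.03% in that fit (1828 of 20248). In the other direction, without WT mouse M17_1 the log2 fold changes of Igkc, Jchain and Mzb1 were -0.42, -0.44 and -0.29. Without M10_2 and M13_1 they were -0.40, -0.36 and -0.55, and that of Igha was -0.31.

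**Figure D2:**
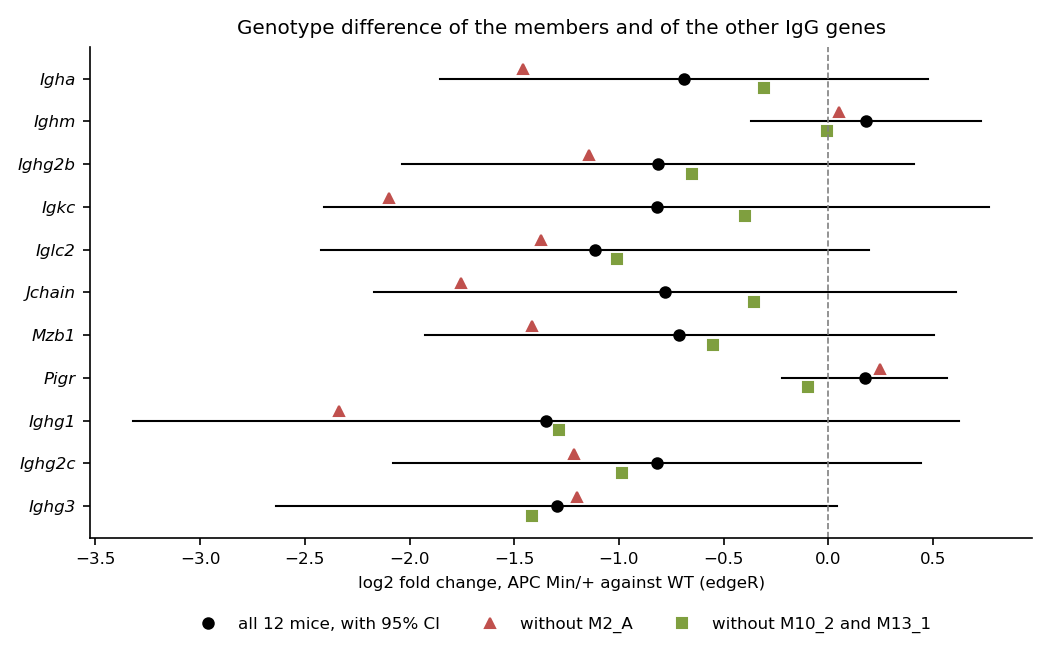
Fitted log2 fold change of APC Min/+ against WT mice (horizontal axis, edgeR) for the 8 genes and 3 further IgG genes, as black points with 95% confidence intervals from all 12 mice, and refitted without M2_A (triangles) or without M10_2 and M13_1 (squares). Every interval includes 0, the triangles of Igha, Igkc, Jchain and Mzb1 lie at -1.42 or below, and the squares of Ighm and Pigr lie at -0.0038 and -0.098.

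The spread between mice of 1 genotype set the antibody genes other than Ighm apart from their carrier. The pooled within-genotype SD of log2 CPM was 1.34 for Igkc, 1.20 for Iglc2, 1.19 for Jchain, 1.15 for Ighg2b, 1.03 for Mzb1 and 1.003 for Igha. These 6 values lay between the 91.9th and the 96.3rd percentile of all genes tested, whose median SD was 0.355. Ighm, at 0.480, lay at the 66.8th percentile and Pigr, at 0.308, at the 41.8th. Antibody RNA other than Ighm thus varied more between mice of 1 genotype than most genes did, while Pigr RNA varied about as much as the median gene.

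Isotype balance was taken as each gene's share of the RPKM summed over the 7 heavy chain genes counted. IgA made up most of it in every mouse. Its share was 82.5, 95.8 and 96.9% (lowest, median and highest) in APC Min/+ mice and 93.2, 95.8 and 97.1% in WT mice. The means were 93.0 ± 5.7% and 95.5 ± 1.6% (SD, n = 6 each), and no difference was shown (exact permutation test, p = 0.390). The medians were equal to the first decimal, and without M10_2 and M13_1 the mean was 0.80 percentage points higher in APC Min/+ mice.

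The share of IgM was 1.33, 3.07 and 15.2% (lowest, median and highest) in APC Min/+ mice and 1.13, 1.69 and 2.67% in WT mice. Of the APC Min/+ mice, M8_2, M10_2, M13_1 and M20_1 lay above every WT mouse. The difference in means of 3.12 percentage points had an exact permutation p of 0.0368, and of 0.331 after Benjamini-Hochberg adjustment over the 9 shares and ratios tested, so it did not pass. It was 0.68 percentage points without M10_2 and M13_1 (exact permutation test, p = 0.167). Without M13_1 alone it was 1.04 percentage points. In M13_1 the share of 15.2% came with both the highest Ighm (29.4 CPM) and the lowest Igha (111 CPM) of all 12 mice. In M8_2, M10_2 and M20_1, Ighm was 10.8, 15.7 and 13.5 CPM, beside 11.5 to 20.9 CPM in WT mice. Igha in these 3 mice was 248, 234 and 279 CPM, below the lowest WT mouse (362 CPM). The RPKM ratio of Igha to Ighm was 5.42 in M13_1, 21.3 in M10_2 and between 29.6 and 85.9 in the other mice.

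IgG genes together held 0.798, 1.78 and 5.44% of heavy chain RPKM (lowest, median and highest) in APC Min/+ mice and 0.882, 2.31 and 5.25% in WT mice (exact permutation test, p = 0.571). The difference in means was -0.63 percentage points, and -1.48 without M10_2 and M13_1. The highest APC Min/+ value was that of M10_2, in which Ighg1 alone held 4.90%. After Igha, the second gene was Ighg1 in M10_2, M2_A and 4 WT mice and Ighm in the other 4 APC Min/+ and 2 WT mice. Ighg1 made up between 33.9% (M8_2) and 93.3% (M18_2a) of the IgG share. Kappa made up 97.5 ± 2.2% (SD, n = 6) of the RPKM of Igkc and Iglc2 in APC Min/+ mice and 98.6 ± 0.9% in WT mice (SD, n = 6, exact permutation test, p = 0.344). The difference of -1.03 percentage points was -0.33 without M10_2 and M13_1. These kappa shares leave out Iglc1 and Iglc3, which were not analysed here.

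**Figure D3:**
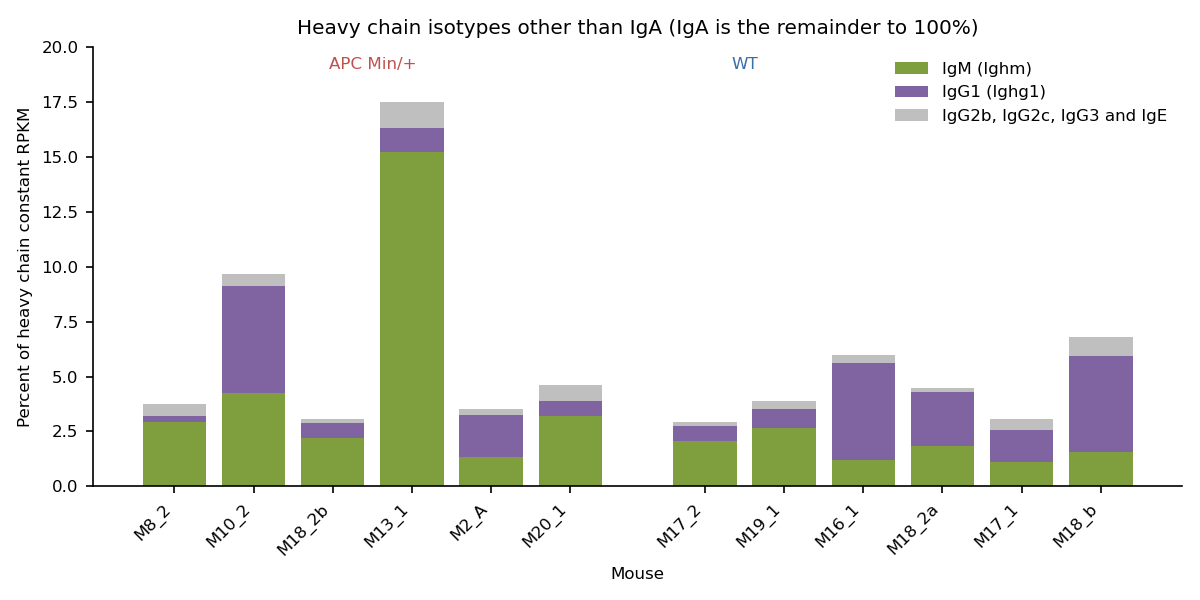
Share of each heavy chain isotype other than IgA in the summed heavy chain RPKM (vertical axis in percent, stacked bars from 0, 1 bar per mouse), with IgA as the remainder to 100%. M13_1 stands out by an IgM share of 15.2% and M10_2 by an IgG1 share of 4.90%, while in the other 10 mice IgA left at most 6.81%.

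Whether the members moved with IgA was examined across the 12 mice, on log2 CPM of Igha. Jchain kept the closest proportion to Igha. Pearson's r was 0.989 and Spearman's rho 0.979 (permutation test with 100000 resamples, p = 1e-05 for both, the smallest these resamples give). It was 0.989 within the APC Min/+ mice and 0.991 within the WT mice, and 0.987 without the 2 mice farthest from the median of Igha, M13_1 and M2_A. The RPKM ratio of Jchain to Igha stayed between 0.208 and 0.353, a range of 1.70 times while Igha itself ranged over 12.3 times. No difference in this log2 ratio between genotypes was shown (difference -0.13, exact permutation test, p = 0.413).

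Igkc followed Igha nearly as closely over all mice, with r = 0.963 and rho = 0.874 (p = 1e-05 and 0.00042, permutation test). Within WT mice r was 0.979 and rho 0.943 (exact permutation p = 0.00278 and 0.0167). Within APC Min/+ mice r was 0.948 and rho 0.657 for Igkc (exact permutation p = 0.0264 and 0.175, adjusted p = 0.0924 and 0.408). Its RPKM ratio to Igha ran from 0.764 in M18_2b to 2.56 in M17_1. For Mzb1, r was 0.822 and rho 0.671 (permutation p = 0.00099 and 0.0201). The relation held within WT mice (r = 0.956, rho = 1, exact permutation p = 0.0014 and 0.0028), whereas within APC Min/+ mice r was 0.726 and rho -0.09 (exact permutation p = 0.156 and 0.919). Iglc2 and Ighg2b had r = 0.675 and 0.630 (permutation p = 0.0161 and 0.0292), with rho = 0.678 and 0.434 (permutation p = 0.0187 and 0.161). After adjustment over the 7 relations, the Pearson p-values of these 5 genes lay at or below 0.0409, and the Spearman p-values at or below 0.0352 for all but Ighg2b (0.188).

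Ighm showed no such relation over all mice (r = 0.228, rho = 0.280, permutation p = 0.470 and 0.377). This rested on M13_1. Without that mouse r was 0.847, and without M10_2 and M13_1 it was 0.931. Within the WT mice it was 0.929 (exact permutation p = 0.0139, adjusted 0.0243). Values scaled within 1 library share its scaling, which can add to any of these correlations.

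No positive relation of Pigr to IgA was found. Over the 12 mice its correlation with Igha was negative, with r = -0.531 and rho = -0.538 (permutation p = 0.0740 and 0.0747, adjusted p = 0.0863 and 0.105), and did not pass the threshold. It was -0.505 within APC Min/+ mice and -0.471 within WT mice (exact permutation p = 0.299 and 0.351). Without M13_1 and M2_A, the 2 mice farthest from the median of Igha, r was -0.408 (permutation p = 0.249), and without M10_2 and M13_1 it was -0.250 (permutation p = 0.482). M10_2 and M13_1, the 2 mice highest in Pigr, were also the 2 lowest in Igha. The size of r leaned on them, while its sign was negative without them and within WT mice. With CPM on total counts in place of TMM, r was -0.587 (permutation p = 0.0444).

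**Figure D4:**
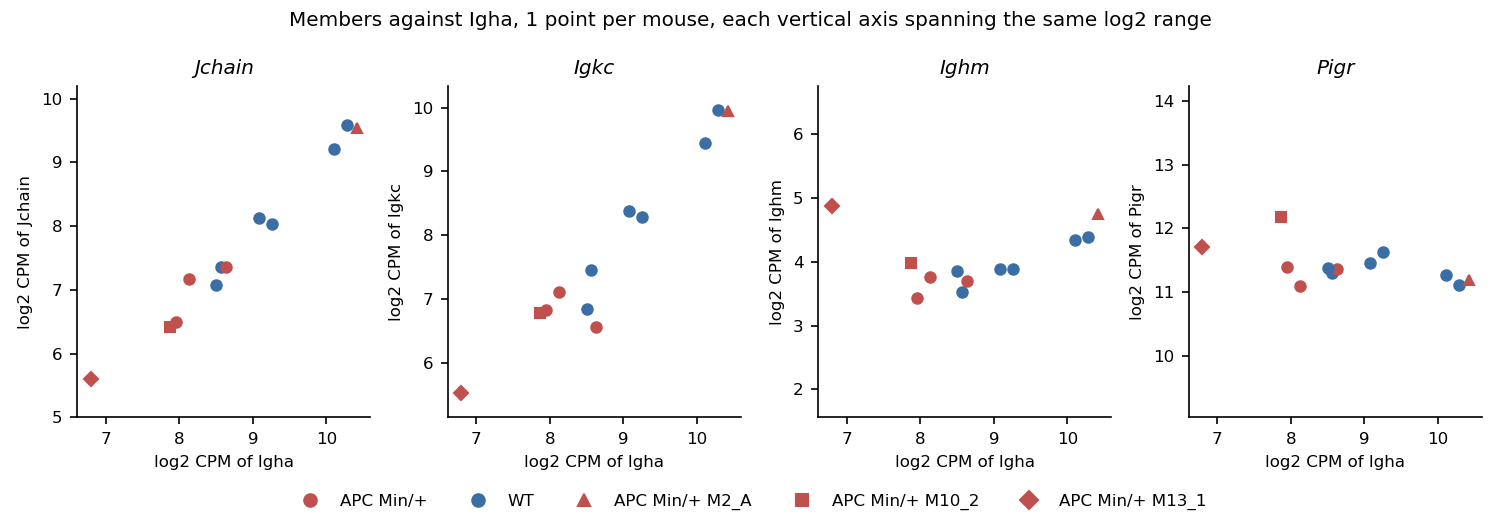
log2 CPM of Jchain, Igkc, Ighm and Pigr (vertical axes, of equal span) against log2 CPM of Igha (horizontal axes), 1 point per mouse, red for APC Min/+ and blue for WT. Jchain and Igkc climb with Igha over the whole range (r = 0.989 and 0.963), the Ighm points climb apart from the diamond of M13_1, and the Pigr points are flat with M10_2 and M13_1 at the upper left (r = -0.531).

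As a ratio, Pigr stood at 0.438 to 7.78 times Igha in RPKM over the 12 mice, a range of 17.8 times. On the log2 CPM scale the ratio of Pigr to Igha was 3.19 ± 1.44 in APC Min/+ mice and 2.06 ± 0.85 in WT mice (SD, n = 6 each), with a difference of 1.14 that was not shown to differ from 0 (exact permutation test, p = 0.119). Without M2_A the difference was 1.62 (exact permutation test, p = 0.0087), and without M10_2 and M13_1 it was 0.42 (p = 0.514 in the same exact test). Against the mean log2 CPM of the 12 epithelial genes, Pigr stood at 1.68 ± 0.62 in APC Min/+ mice and 1.52 ± 0.19 in WT mice (SD, n = 6 each, exact permutation test, p = 0.526). M10_2 and M13_1 had the 2 highest ratios, 2.57 and 2.35, against 1.08 to 1.74 in the others. Their mean log2 CPM of the epithelial genes, the other side of this ratio, was 9.61 and 9.36, beside 9.40 to 10.28 in the other mice. The part of this in their ratios was not tested. Their summed CPM of the epithelial genes, 14840 and 13320, stood beside 13339 to 21842 in the other mice.

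The genes whose pattern was most like Igha over the 12 mice, among 14784 tested genes of at least 1 CPM that are not antibody genes, were Jchain (r = 0.989), Erp29 (r = 0.970), Nprl2 (r = 0.949), Fcgr4 (r = 0.943) and Hmox1 (r = 0.937). Erp29 encodes a protein of the endoplasmic reticulum, Fcgr4 an activating receptor for IgG on myeloid cells and Hmox1 an enzyme of heme breakdown. Jchain ranked first and Mzb1 ranked 448th. Most like Pigr were Plekha2 (r = 0.955), Dnah5 (r = 0.948), 4632415L05Rik (r = 0.933), Tirap (r = 0.931), an adaptor of Toll-like receptor signalling, and Gal3st2b (r = 0.926). All 5 had their 2 highest values in M10_2 and M13_1, for example 96.3 and 80.8 CPM of Plekha2 against 57.1 to 69.8 CPM in the other mice. The median r of the 12 epithelial genes with Pigr was -0.01.

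Counts on antibody variable (V) genes come from the same RNA as those on the constant genes. Heavy chain V genes (108) held between 0.247 and 0.371 counts per count on heavy chain constant genes, and kappa V genes (103) between 0.715 and 1.12 counts per count on Igkc. Since both parts lie on the same RNA, a steady proportion is not separate support for the constant gene values.

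Other genes of antibody-secreting cells were not called either. Of 16 plasma cell genes tested, 12 had a log2 fold change below 0 and 4 above, with a median of -0.12, and 0 had an unadjusted p under 0.05 in edgeR (2 in DESeq2, beside 6.48% of all genes). Derl3, a factor of endoplasmic reticulum degradation, was lowest at -0.85 (SE 0.42), and Tent5c, a poly(A) polymerase, was highest at 0.89 (SE 0.42), its 2 highest values being those of M13_1 and M10_2. Without these 2 mice Tent5c had -0.15 and the highest value was 0.63, that of Prdm1. Tnfrsf17, the plasma cell survival receptor BCMA, had -0.70 (SE 0.60) and Irf4, a transcription factor of plasma cells, -0.50 (SE 0.33). The regulators Prdm1 and Xbp1, which the epithelium also expresses, had 0.19 (SE 0.49) and -0.11 (SE 0.09). Other genes of the list were also counted far above Tnfrsf17, which reached at most 2.02 CPM. Sdc1, Txndc5 and Sec11c lay at 89.0 CPM or more in every mouse, with 0.03, -0.26 and -0.23. The cell source of their RNA was not tested, so the median of the list is not a measure of plasma cells alone.

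All 15 B cell genes tested had a log2 fold change above 0, with a median of 0.57, and the whole list turned with 1 mouse. Without M13_1, 2 of the 14 still tested were above 0 and the median was -0.50. Cr2, the complement receptor of follicular B cells and follicular dendritic cells, reached 12.4 CPM in M13_1 and at most 1.11 CPM in any other mouse (log2 fold change 2.303, SE 1.23). Ms4a1 and Cd79a, which define B cells, had 1.30 (SE 0.89) and 0.57 (SE 0.78), and Ebf1 had the lowest value, 0.10 (SE 0.20). None had an unadjusted p under 0.05 in edgeR or DESeq2. M13_1, highest in B cell genes and in Ighm, was at the same time lowest in Igha, Igkc and Jchain.

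For the induction and homing of IgA cells, 14 of 16 listed genes were tested, of which 8 were above 0 and 6 below, with a median of 0.01. Ccl28, the colonic epithelial chemokine that draws IgA plasma cells through their receptor Ccr10, had a log2 fold change of 0.77 (SE 0.28, unadjusted p = 0.0149, FDR = 0.908 in edgeR). It was counted at 214 CPM in M13_1 and 167 CPM in M10_2 and at 56.3 to 89.9 CPM in the other mice, and without these 2 mice its log2 fold change was 0.18. Il10, a cytokine that acts on B cells, had -1.08 (SE 0.36, unadjusted p = 0.0101, FDR = 0.908), at 0.0221 to 0.126 CPM in APC Min/+ mice and 0.0961 to 0.214 CPM in WT mice, near the limit of 3 counts. Ccr10 (-0.18, SE 0.46) and Tnfsf13, the survival factor APRIL (-0.02, SE 0.15), lay within their errors. These 2 genes among 14 stand beside 5.27% of all genes at an unadjusted p under 0.05.

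Regulators of Pigr from the interferon, NF-kB, interleukin and Toll-like receptor pathways had small fold changes. Of 13 tested, 10 were above 0 and 3 below, with a median of 0.10 and a range from -0.15 for Stat6 to 0.26 for Rela, and 0 had an unadjusted p under 0.05 in edgeR or DESeq2. Irf1 had 0.095 (SE 0.097), Nfkb1 0.13 (SE 0.22) and Il17ra 0.09 (SE 0.14). Among 7 other receptors and transporters of antibodies, 5 were below 0 and 2 above. Fcgrt, the neonatal Fc receptor that carries IgG, had -0.24 (SE 0.14), and Fcgr4 was lowest at -0.46 (SE 0.29). Fcmr, the IgM receptor of B cells, was highest at 2.38 (SE 1.23) and was -1.998 without M10_2 and M13_1. Its level was 4.30 CPM in M13_1 and 0.0103 to 0.355 CPM in the other mice, in some near the limit of 3 counts. Fcamr, a receptor for IgA and IgM, had 1.10 (SE 0.43, unadjusted p = 0.0235 in edgeR). It had 2.16 CPM in M13_1 and 1.80 CPM in M10_2, against at most 1.02 CPM elsewhere. Without those mice it was 0.25.

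The lists of other cell types were read beside these values. Of the epithelial genes 6 of 12 were above 0, of the T cell genes 0 of 9, of the macrophage genes 2 of 8, of the smooth muscle genes 6 of 7 and of the adipocyte genes 2 of 5, with 0 DEGs in each in edgeR or DESeq2. Unadjusted p-values under 0.05 were found for 1 of 9 T cell genes and 3 of 7 smooth muscle genes in edgeR, beside 5.27% of all genes, and for 2 and 3 of them in DESeq2, beside 6.48%. All 4 posterior Hox genes were above 0 with unadjusted p under 0.05, and DESeq2 called 1 of them, Hoxb13. M10_2 and M13_1 were the 2 highest mice for each of the 4. Hoxb13 had 378 and 275 CPM in them, against at most 0.744 CPM elsewhere. Without these 2 mice the log2 fold changes were 0.06 for Hoxa13, 1.24 for Hoxb13 and 1.03 for Hoxd13. With all 12 mice they were 3.82, 9.86 and 7.76.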

How the data were processed

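Proximal colon RNA of 12 mice (6 per genotype) was sequenced in paired ends. The authors deposited unnormalized counts of reads per gene, 1 table per mouse, with the exonic length of each gene in bp as another value. The submitters' processing notes name STAR 2.3.0, featureCounts and the build GRCm38.p2. The annotation release, strand setting and handling of reads with several matches are not given in the sources used here. Symbols and coordinates were taken from GENCODE M21 by identifier without version (37607 of 38924). Mice were grouped by the genotype in the labels. Columns of other series: 0.

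Genes with 10 or more counts in 3 or more mice were tested with edgeR 4.0.16 (TMM, glmQLFit, glmQLFTest, genotype as the only term, two-sided, Benjamini-Hochberg over 20311 genes). DEGs passed an FDR of 0.05 and changed at least 2-fold. The SE is the log2 fold change divided by the square root of F. Shares and ratios were compared by two-sided exact permutation over the 924 splits of the mice (smallest p 0.0022), with a pseudocount of 0.01 CPM for log2 values, and correlations by 100000 resamples, or exactly within a genotype. R 4.3.3, DESeq2 1.42.0, Python 3.11.15 and scipy 1.17.1 were used, and the scripts were tested on simulated data. Because 2 genes were unmatched, 9 shares and ratios and 7 correlations were tested, fewer than the 11 and 9 planned.

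The members and gene lists were chosen with earlier results of these data known. The genes named were the members, the other antibody constant genes, the highest and lowest log2 fold change and up to 4 preset genes of each related list, and the 5 genes most correlated with Igha and with Pigr. Some preset genes are not reported here. Alternatives were DESeq2, other normalizations and filters, the second number in the mouse name (or a letter, where there is none) as a covariate, and leaving out mice.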

Additional observations from a re-analysis of the deposited data

Results flagged for a closer look

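In each genotype, the highest and lowest mouse of each antibody value were compared with the others by Dixon's gap test for 6 values. Of the 40 groups tested, 7 were marked, and 4 of these belong to the same mouse and to genes that vary together. For normally distributed values, chance flags about 1 in 20 groups. All 7 flags fell on CPM or percent values that were not put on a log scale. Skewed values can be flagged more often, so the number of flags cannot be set against that rate. M2_A stood above the other APC Min/+ mice for Igha at 1369 CPM (the next highest being 397 CPM), for Igkc at 988 CPM (next 138 CPM), for Jchain at 748 CPM (next 165 CPM) and for Mzb1 at 7.18 CPM (next 1.87 CPM). M13_1 stood above the other APC Min/+ mice for the IgM share of heavy chain RPKM at 15.2%, and M10_2 for the IgG share at 5.44%. Among WT mice, M17_1 stood above the others for Ighg2c at 0.746 CPM, a gene counted only 150 times over all 6 WT mice. The causes were not tested.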

How the results depend on the processing

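With DESeq2 as the test there were 27 DEGs in place of 0, none of them among the 8 genes. With any 1 mouse left out the DEG count was 0. Of 467 values computed under an alternative, 438 kept their direction and their side of the threshold. Most of these alternatives left out 1 mouse and shared the rest, so they are not independent, and the count does not take size into account. With 1 mouse left out, the log2 fold change ran from -1.46 to -0.47 for Igha. It ran from -2.10 to -0.42 for Igkc and from -1.75 to -0.44 for Jchain. With 1 mouse left out at a time, the values had these ranges. The log2 fold change of Ighm ran from -0.0090 to 0.29, that of Pigr from 0.0037 to 0.25, the IgM share difference from 1.04 to 3.82 percentage points, the IgA share difference from -3.28 to -0.39, the log2 ratio difference of Mzb1 to Igha from -0.0316 to 0.45 and that of Pigr to Igha from 0.79 to 1.62 (past the threshold only without M2_A), with Pigr to the epithelial genes from -0.0135 to 0.29. The correlation of Ighm with Igha ran from -0.0047 to 0.847 and that of Pigr with Igha from -0.650 to -0.458, past the threshold only without M20_1. Without M10_2 and M13_1, several directions turned: Ighm (-0.0038), Pigr (-0.098), the IgA share (0.796 percentage points), Mzb1 to Igha (-0.214) and Pigr to the epithelial genes (-0.225). With medians in place of means, the IgA share difference was 0.0071 percentage points and that of Pigr to the epithelial genes -0.116. With CPM on total counts, the correlation of Pigr with Igha was -0.587. The causes were not tested. With the second number in the mouse name as a covariate, the log2 fold change was -0.98 for Igha, -1.43 for Igkc, -1.16 for Jchain, -0.76 for Mzb1, -0.48 for Iglc2 and -0.35 for Ighg2b, with 0 DEGs. No paired analysis was possible because the labels give no replicate numbers, and of the numbers in the mouse names, whose meaning is not given, only 1 occurs in both genotypes. With 6 mice a genotype and an SD near 1 or above on the log2 scale, the intervals were wide. As folds they ran from 0.277 to 1.39 for Igha, 0.188 to 1.70 for Igkc and 0.222 to 1.53 for Jchain. For these genes counting error was small beside the spread between mice, and the cause of that spread was not tested.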
